A study of Mus musculus with 76 samples.

Results

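Kidneys of mice that had lost kidney mass and then received cells carrying NaKtide were set against kidneys of sham-operated mice, to ask which transcripts still differed from sham after nephrectomy when those cells were given. All animals were male Fox Chase SCID mice, CB17/Icr-Prkdcscid/IcrlcoCrl, 12 weeks old, which carry the Prkdc scid mutation and lack working T and B lymphocytes. The Sham group had sham surgery and no cells (5 samples from 6 libraries, the second library of Sham 3 being added to its first). The NaKtide group had partial nephrectomy (PNx) and cells labelled Lenti-adipo-NaKtide (5 samples). These 10 samples were chosen by their labels out of 74 in the series. Kidneys after PNx with no cells (5 samples) and after PNx with cells labelled Lenti-adipo-scrambled (5 samples) are given beside them, and kidneys after PNx with control cells (5 samples) entered the same fit. The type of the transplanted cells, the promoter that drives the peptide, the time after surgery and whether each sample is a separate animal are not stated in the available sources, and the p-values therefore reflect sample-to-sample spread, which may be technical.

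The Na/K-ATPase pumps sodium out of and potassium into cells and powers reabsorption along the nephron. It also binds the kinase Src, and NaKtide is a peptide from the pump that blocks Src in this complex. After loss of kidney mass the remaining nephrons enlarge, some tubule cells re-enter the cell cycle, transporters of the proximal tubule decline, and matrix and macrophages can accumulate.

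The NaKtide samples held 7549762 to 13575974 counts and the Sham samples 6157325 to 14508779 counts. Kidney markers were abundant. The proximal tubule phosphate carrier Slc34a1 measured 2377 to 4084 CPM (read counts scaled by TMM-adjusted library totals) in NaKtide kidneys, and the loop protein uromodulin (Umod) 1875 to 3417 CPM. NaKtide 1, and to a lesser degree NaKtide 4, stood apart from the other NaKtide samples. The RNA length index is the mean log2 CPM of the shortest-quartile genes minus that of the longest-quartile genes. It was −0.145 in NaKtide 1, −0.63 in NaKtide 4, −1.18 to −1.13 in NaKtide 2, 3 and 5 and −1.09 to −0.90 in Sham. Counts of NaKtide 1 set against each other NaKtide sample gave chi-square values, divided by their degrees of freedom, of 21.9 to 61.1. NaKtide 4 gave 19.4 to 26.4 against NaKtide 2, 3 and 5, which gave 5.93 to 9.14 among themselves. Pairs of Sham samples, without the second library of Sham 3, gave 3.30 to 6.42. That second library gave 8.70 against the first of Sham 3 and 8.51 to 13.3 against the other Sham samples. PNx 3, 4 and 5 and control cells 4 and 5 also had high indices, up to 0.28, and were left out in an alternative fit. Control cells 4 and 5 held only 4811672 and 1241590 counts, and both entered the main fit. All 5 scrambled-cell samples, at −0.849 to −0.141, lay above every Sham sample too. With the index as a covariate, edgeR called 1356 genes between scrambled-cell and Sham kidneys at an adjusted p under 0.05, beside 588 without it. The part of the index in the list values of scrambled cells was not tested. Counts over all genes, the medians of several lists and some single genes are therefore given with and without NaKtide 1.

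**Figure D1:**
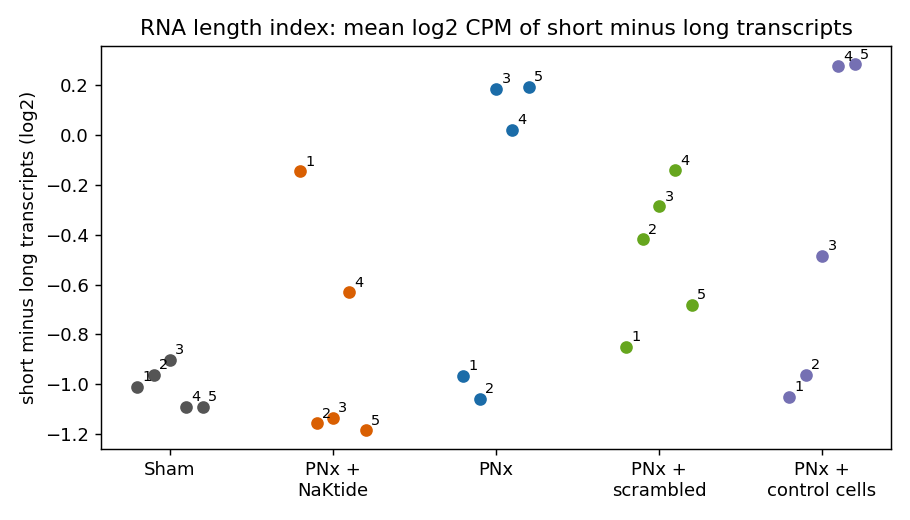
RNA length index (mean log2 CPM of the shortest-quartile genes minus that of the longest-quartile genes) of each kidney sample, by arm, with replicate numbers. NaKtide 1 at −0.145 and NaKtide 4 at −0.63 lie above all 5 Sham samples (−1.09 to −0.90), while NaKtide 2, 3 and 5 lie between −1.18 and −1.13.

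No gene passed the test between NaKtide and Sham kidneys. Of 16307 genes tested, edgeR's quasi-likelihood test called 0 (0.0%) at an adjusted p under 0.05, and 1015 genes (6.22%) had an unadjusted p under 0.05, with 659 higher (4.04%) and 356 lower (2.18%) in NaKtide kidneys. All 5 samples of one group lay above all 5 of the other for 246 genes higher (1.51%) and 516 genes lower (3.16%) with NaKtide. With each of the 10 samples left out in turn, the share at an unadjusted p under 0.05 was 2.22% to 5.77% higher and 1.21% to 2.43% lower. In the order NaKtide 1 to 5, then Sham 1 to 5, the higher shares were 5.77, 2.22, 2.43, 4.88, 3.43, 2.87, 2.99, 3.52, 2.56 and 4.59%. The lower shares were 2.43, 1.21, 1.43, 1.64, 2.23, 1.74, 1.69, 1.82, 1.31 and 2.15%. List counts below with 1 sample left out stand beside these shares. The median log2 fold change over all genes was 0.04, and 56.1% of genes were above 0. DESeq2 called 6 genes (0.0368%), 2 higher (0.0123%) and 4 lower (0.0245%), and limma voom with sample quality weights called 3217, 2024 higher (12.4%) and 1193 lower (7.32%), or 19.7% in all. With only the 2 groups in the edgeR fit 55 genes (0.358%) were called, 18 higher (0.117%) and 37 lower (0.241%). With the length index as a covariate 17 (0.104%) were called, 8 higher (0.0491%) and 9 lower (0.0552%). Leaving out the 5 PNx and control-cell libraries of high length index gave 57 (0.336%), 10 higher (0.059%) and 47 lower (0.277%). Leaving out NaKtide 1 as well gave 371, 244 higher (1.44%) and 127 lower (0.749%), which is 2.19% of 16947 genes. That fit, chosen after the values were seen, is called the reduced fit here. NaKtide 1 lay nearest to Sham for several genes named below, so leaving it out widens their differences by choice. Calls of the reduced fit are therefore no independent support. Scrambled-cell sample 4, with an index of −0.141 beside −0.145 in NaKtide 1, was kept in it. Leaving out only NaKtide 1 gave 2 calls, both higher (0.0121%).

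In the same fit, PNx without cells differed from the same Sham samples in 2742 genes (16.8%), 1509 higher (9.25%) and 1233 lower (7.56%), and PNx with scrambled cells in 588 genes (3.61%), 281 higher (1.72%) and 307 lower (1.88%). These comparisons share the Sham samples. The direct tests called 0 genes between NaKtide and PNx kidneys (0.0%; 3116, or 19.1%, at an unadjusted p under 0.05 in edgeR, 0 called by DESeq2, 6773 by limma voom). They called 0 between NaKtide and scrambled-cell kidneys (0.0%; 819, or 5.02%, at an unadjusted p under 0.05 in edgeR, 14 called by DESeq2, 4401 by limma voom). The count for PNx against Sham rests on single libraries. It was 307 without PNx 3, 719 without PNx 4, 933 without PNx 5, 5768 without PNx 1, 6534 without PNx 2, 384 to 1116 without any 1 Sham sample and 97 without the 5 libraries of high length index. For scrambled cells it was 4532 without those 5.

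**Figure D2:**
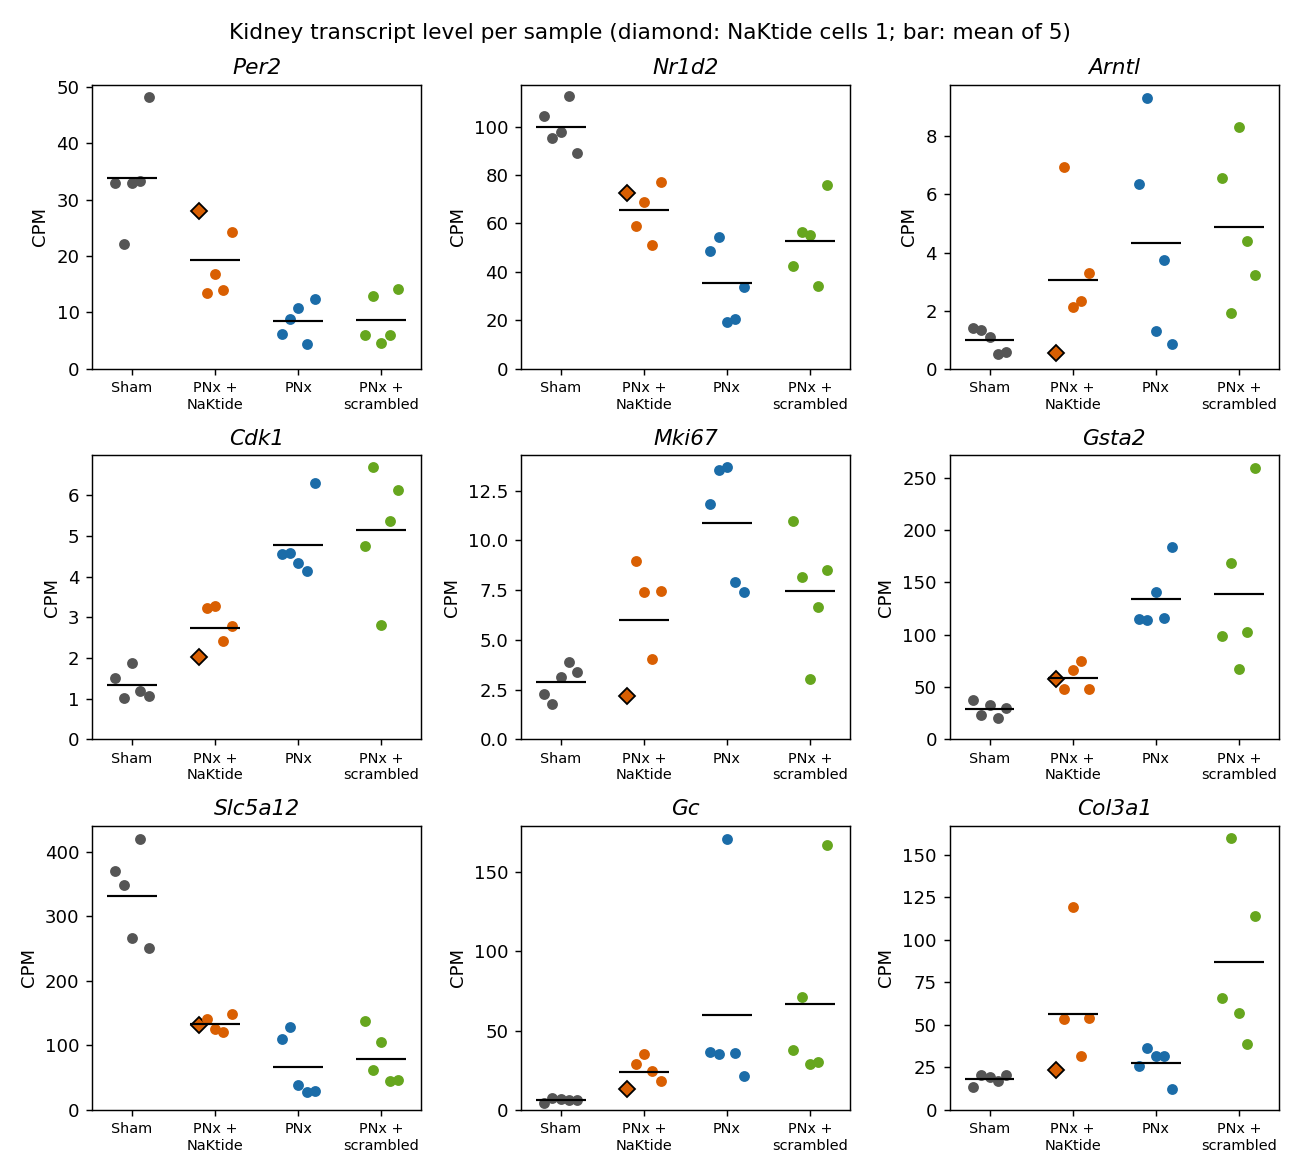
Transcript levels in CPM (linear axes from 0) of 9 genes in each kidney sample after sham surgery, PNx with NaKtide cells, PNx alone and PNx with scrambled cells, with group means as bars and NaKtide 1 as a diamond. Nr1d2 and Slc5a12 lie lower and Cdk1, Gsta2, Gc and Col3a1 higher in all 5 NaKtide samples than in all 5 Sham samples, and NaKtide 1 lies within or beside the Sham range for Per2, Arntl and Mki67.

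Transporters of the proximal tubule were mostly lower in NaKtide than in Sham kidneys. Of 28 such genes tested, 25 had a log2 fold change below 0 (all genes: 43.9%), 5 were lower and 0 higher at an unadjusted p under 0.05 (all genes: 2.18% and 4.04%), and 8 did not overlap between the groups, all lower (all genes: 3.16%). The 5 became 1 without NaKtide 2, 2 without Sham 4 and 3 without Sham 1. Their median log2 fold change was −0.30, and −0.33 without NaKtide 1, against 0.04 over all genes. Beside it, PNx against Sham had a median of −0.57 with 2 genes called higher and 10 lower (all genes: 9.25% and 7.56%). Scrambled cells against Sham had −0.61 with 6 called lower (all genes: 1.88%). In a whole kidney, fewer cells of a type and less RNA per cell cannot be told apart.

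Slc5a12, the sodium-coupled lactate carrier of the proximal tubule (ENSMUSG00000041644, chromosome 2, 110597298 to 110647779), measured 370, 348, 267, 420 and 251 CPM in Sham 1 to 5 and 131, 140, 126, 120 and 149 CPM in NaKtide 1 to 5. Every NaKtide sample was below every Sham sample, and the NaKtide values were the more even. The log2 fold change was −1.31 (SE 0.44, edgeR unadjusted p = 0.00655, adjusted p = 0.712), with an adjusted p of 0.0411 in the reduced fit. PNx kidneys measured 110, 128, 38.1, 27.8 and 29.9 CPM, with the lowest values in the 3 samples of high length index. The level in NaKtide kidneys did not pass the test against PNx (edgeR adjusted p = 0.258).

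Slc7a13, an amino acid transporter of the late proximal tubule that is more abundant in males, measured 708 ± 66.1 CPM in Sham and 496 ± 78.6 CPM in NaKtide kidneys (SD, n = 5 and 5), with no overlap. Slc27a2, a fatty acid carrier and acyl-CoA synthetase, measured 2881 to 3360 CPM in Sham and 1752 to 2561 CPM with NaKtide. Both are among the 5 transporters called in the reduced fit (adjusted p = 0.0375 and 0.0251), of which 1 was higher and 4 lower (all genes: 1.44% and 0.749%). The endocytic receptors megalin (Lrp2) and cubilin (Cubn) also did not overlap, at 1309 ± 125 against 982 ± 132 CPM and 319 ± 28.2 against 234 ± 38.4 CPM. Neither was called in the reduced fit (adjusted p = 0.306 and 0.190). Slc34a1 did overlap. It measured 4084 CPM in NaKtide 1 and 2377 to 3161 CPM in NaKtide 2 to 5, against 3370 to 4198 CPM in Sham (log2 fold change −0.34, adjusted p = 0.922).

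Genes of fatty acid oxidation had a median of −0.13 over 24 tested, 3 of them lower and 0 higher at an unadjusted p under 0.05 (all genes: 2.18% and 4.04%). The same 3 did not overlap (all genes, lower: 3.16%). Ppara, the nuclear receptor that drives this pathway (ENSMUSG00000022383, chromosome 15, 85734983 to 85802819), measured 41.3, 39.6, 30.6, 48.3 and 37.5 CPM in Sham and 16.1 to 21.1 CPM in the 5 NaKtide kidneys. All 5 NaKtide values were lower than the lowest Sham value (log2 fold change −1.04, SE 0.40, edgeR adjusted p = 0.745). Cpt1a, which carries fatty acids into mitochondria, measured 477 to 624 CPM in Sham and 366 to 430 CPM with NaKtide (log2 fold change −0.50). Ppara and Cpt1a were called in the fit of only the 2 groups and in the reduced fit, where their adjusted p were 0.0403 and 0.0481.

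Genes that androgens raise in the male mouse kidney had log2 fold changes below 0 in 15 of 15 tested (all genes: 43.9%), with 7 lower at an unadjusted p under 0.05 (all genes: 2.18%). The 7 became 3 without NaKtide 2, NaKtide 3 or Sham 4 and 4 without Sham 2. Their median was −0.51 (−0.59 without NaKtide 1), beside −0.71 for PNx and −0.73 for scrambled cells. Cyp2e1, a monooxygenase, measured 2002 to 2648 CPM in Sham and 1130 to 1952 CPM with NaKtide, with NaKtide 1 the highest of its group.

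Of the genes of angiotensin processing, 3 of 11 tested were lower without overlap (all genes: 3.16%), and 1 of 11 was lower at an unadjusted p under 0.05 (all genes: 2.18%). They include the receptor Agtr1a (36.9 ± 4.71 against 28.5 ± 3.84 CPM) and aminopeptidase A, Enpep (144 ± 11.2 against 109 ± 6.38 CPM). Renin, Ren1, overlapped at 77.8 to 147 CPM in Sham and 60.4 to 95.2 CPM with NaKtide. The edgeR adjusted p was 0.937 for each of Agtr1a, Enpep and Ren1.

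The mitosis genes were the list that lay farthest above Sham among pathway lists of at least 10 tested genes. All 22 tested had a log2 fold change above 0 (all genes: 56.1%) and 16 were higher at an unadjusted p under 0.05 (all genes: 4.04%), with a median of 1.02, or 1.16 without NaKtide 1. The 16 became 10 without NaKtide 2 (all genes: 2.22%) and without NaKtide 3 (all genes: 2.43%). With only the 2 groups in the fit, 10 of 17 tested were higher at that threshold. In the reduced fit 4 were called (all genes, higher: 1.44%), Cdk1, Mki67, Top2a and Kif23. Beside these values, PNx against Sham had a median of 1.72 with 16 called higher (all genes: 9.25%). Scrambled cells had 1.42 with 12 called higher (all genes: 1.72%). Levels were low, with Sham means from 0.415 to 2.89 CPM over the 22 genes.

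Cdk1, the kinase that starts mitosis (ENSMUSG00000019942, chromosome 10, 69335146 to 69352938), measured 1.51, 1.01, 1.87, 1.18 and 1.05 CPM in Sham 1 to 5 and 2.02, 3.24, 3.28, 2.42 and 2.78 CPM in NaKtide 1 to 5. The groups did not overlap, and NaKtide 1 was nearest to Sham. It was 1.03 higher on the log2 scale (SE 0.25, edgeR unadjusted p = 0.000449, adjusted p = 0.611), 1.11 without NaKtide 1 (adjusted p = 0.173). PNx kidneys measured 4.55, 4.58, 4.34, 4.14 and 6.31 CPM, all above every NaKtide sample. The difference of NaKtide from PNx was −0.78 (unadjusted p = 0.00283, adjusted p = 0.258).

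Mki67, the proliferation antigen Ki-67 (ENSMUSG00000031004, chromosome 7, 135689784 to 135716361), measured 2.27, 1.79, 3.12, 3.87 and 3.40 CPM in Sham and 2.16, 8.94, 7.38, 4.06 and 7.45 CPM in NaKtide kidneys. NaKtide 1 was inside the Sham range and the other 4 were above it (log2 fold change 1.08, SE 0.36, adjusted p = 0.712). Genes of DNA replication, the preceding phase, had a median of 0.12, with 1 of 22 higher at an unadjusted p under 0.05, a share near the 4.04% of all genes. Cdkn1a, the p53-induced cell cycle inhibitor p21, measured 5.01, 7.06, 6.58, 5.55 and 12.1 CPM in Sham and 7.96, 26.5, 17.8, 16.1 and 15.5 CPM with NaKtide. NaKtide 2 to 5 were above all Sham samples and NaKtide 1 was not. The fitted difference was 1.22 on the log2 scale (SE 0.36, edgeR adjusted p = 0.709) and the reduced fit called it higher (1.40, adjusted p = 0.00669).

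Promoters of Cdk1 and Mki67 are shown because mitosis genes share 2 elements near their starts, the CCAAT box, bound by NF-Y, and the cell cycle homology region (CHR), at which DREAM and B-Myb complexes act. Sequences are from RefSeq on GRCm38.p6. They read 5′ to 3′ on the minus strand, the strand of both genes, and end before the first exon. Capitals mark the CCAAT box, read in either orientation so that some copies appear as its reverse complement, and the CHR, searched as TTTGAA. The first stretch is chr10:69352939-69353140 and the second chr7:135716452-135716587.
Cdk1: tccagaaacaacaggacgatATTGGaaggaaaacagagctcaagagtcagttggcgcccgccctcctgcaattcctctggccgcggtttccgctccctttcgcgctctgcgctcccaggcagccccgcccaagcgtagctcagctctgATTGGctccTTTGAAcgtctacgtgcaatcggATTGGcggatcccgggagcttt
Mki67: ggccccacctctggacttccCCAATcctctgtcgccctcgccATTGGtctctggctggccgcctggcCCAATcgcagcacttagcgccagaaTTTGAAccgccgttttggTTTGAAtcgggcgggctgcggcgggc
The Cdk1 stretch holds 3 CCAAT boxes and 1 TTTGAA, and the Mki67 stretch 3 and 2. Over windows of 250 bases before to 50 after each start, searched on both strands, CCAAT was present for 18 of the 20 mitosis genes found in the table of 24 listed (90.0%), against 41.1% of 27025 genes. TTTGAA was present for 15 of 20, against 20.2%. CCAAT was also present for 11 of 13 core clock genes (84.6%) and 13 of 20 glutathione S-transferase genes (65.0%). It was present for 44.4% of clock output, 47.6% of NRF2 and 28.6% of matrix genes found. No matches overlap in the stretches shown. A match describes the letters and is no measure of binding.

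Clock genes lay on both sides of Sham, with the activators Arntl and Npas2 above it, Clock near 0 at −0.08 and most repressors below it. Of 16 core clock genes tested, 2 were higher and 6 lower at an unadjusted p under 0.05 (all genes: 4.04% and 2.18%), with a median of −0.32. All 10 clock output genes were below 0 (all genes: 43.9%), 4 of them at an unadjusted p under 0.05 (median −0.48). Without NaKtide 1 the medians were −0.48 and −0.67, and the counts at an unadjusted p under 0.05 were 3 higher and 8 lower in the core and 6 lower among the outputs. The 2 higher core genes became 0 without NaKtide 2 and 1 without NaKtide 4, Sham 1 or Sham 5, and the 6 lower became 3 without Sham 5. In the reduced fit 1 core gene was called higher (Arntl) and 3 lower (Cry1 and Rora among them), and 4 outputs were called lower (all genes: 1.44% higher and 0.749% lower). Beside these values, PNx against Sham had medians of −0.71 and −0.78. It called 2 core genes higher, 7 core genes lower and 4 outputs lower (all genes: 9.25% higher and 7.56% lower). Time of day at collection is not stated, and its part in these values was not tested.

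The activator gene Arntl, which encodes BMAL1 (ENSMUSG00000055116, chromosome 7, 113207465 to 113314126), measured 1.42, 1.34, 1.11, 0.505 and 0.586 CPM in Sham 1 to 5 and 0.539, 6.93, 2.13, 2.32 and 3.29 CPM in NaKtide 1 to 5. NaKtide 1 was as low as the lowest Sham samples and the other 4 were above all of them. On the log2 scale the difference was 1.60 (SE 0.63, edgeR adjusted p = 0.745). Its partner Npas2 followed the same order of samples at the ends, with 0.539 CPM in NaKtide 1 and 5.57 CPM in NaKtide 2, against 0.586 to 2.24 CPM in Sham (1.36, adjusted p = 0.779).

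The repressor gene Per2 (ENSMUSG00000055866, chromosome 1, 91415982 to 91459324) measured 32.9, 22.1, 32.9, 33.3 and 48.1 CPM in Sham and 27.9, 13.5, 16.8, 13.9 and 24.2 CPM in NaKtide kidneys. NaKtide 1 and 5 overlapped the lowest Sham value and the other 3 were below it. The log2 fold change was −0.82 (SE 0.31, unadjusted p = 0.0147, adjusted p = 0.745), and −0.99 without NaKtide 1 (adjusted p = 0.371). PNx kidneys measured 4.40 to 12.3 CPM, all below every NaKtide sample, and Per2 was called in PNx against Sham (−1.99, adjusted p = 0.00249). NaKtide was 1.18 higher than PNx on the log2 scale (unadjusted p = 0.00127, adjusted p = 0.258).

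Per3, a further period gene, measured 23.4 to 32.5 CPM in Sham and 31.6, 13.9, 17.8, 10.5 and 19.9 CPM in NaKtide 1 to 5, so that only NaKtide 1 was within the Sham range. Cry1, the cryptochrome repressor, measured 3.58 to 10.3 CPM and 4.99, 2.01, 1.15, 1.45 and 3.21 CPM, with the same sample inside the range (log2 fold change −1.31, adjusted p = 0.745). The nuclear receptor genes Nr1d2 and Rora did not overlap in any sample. Nr1d2, which encodes REV-ERBβ, measured 104, 95.4, 97.9, 113 and 88.9 CPM in Sham and 72.4, 59.0, 68.8, 51.3 and 77.2 CPM with NaKtide (log2 fold change −0.60, SE 0.26, adjusted p = 0.777). Rora, which opposes REV-ERB at shared sites, measured 38.0 to 47.4 and 17.2 to 31.9 CPM (−0.81, adjusted p = 0.712). Of the outputs, the factor gene Hlf (161 ± 9.91 against 108 ± 12.4 CPM) and the kinase gene Wee1 (22.1 against 11.9 CPM, on average) did not overlap, while Dbp did, with 194 CPM in NaKtide 1 above all Sham samples.

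**Figure D3:**
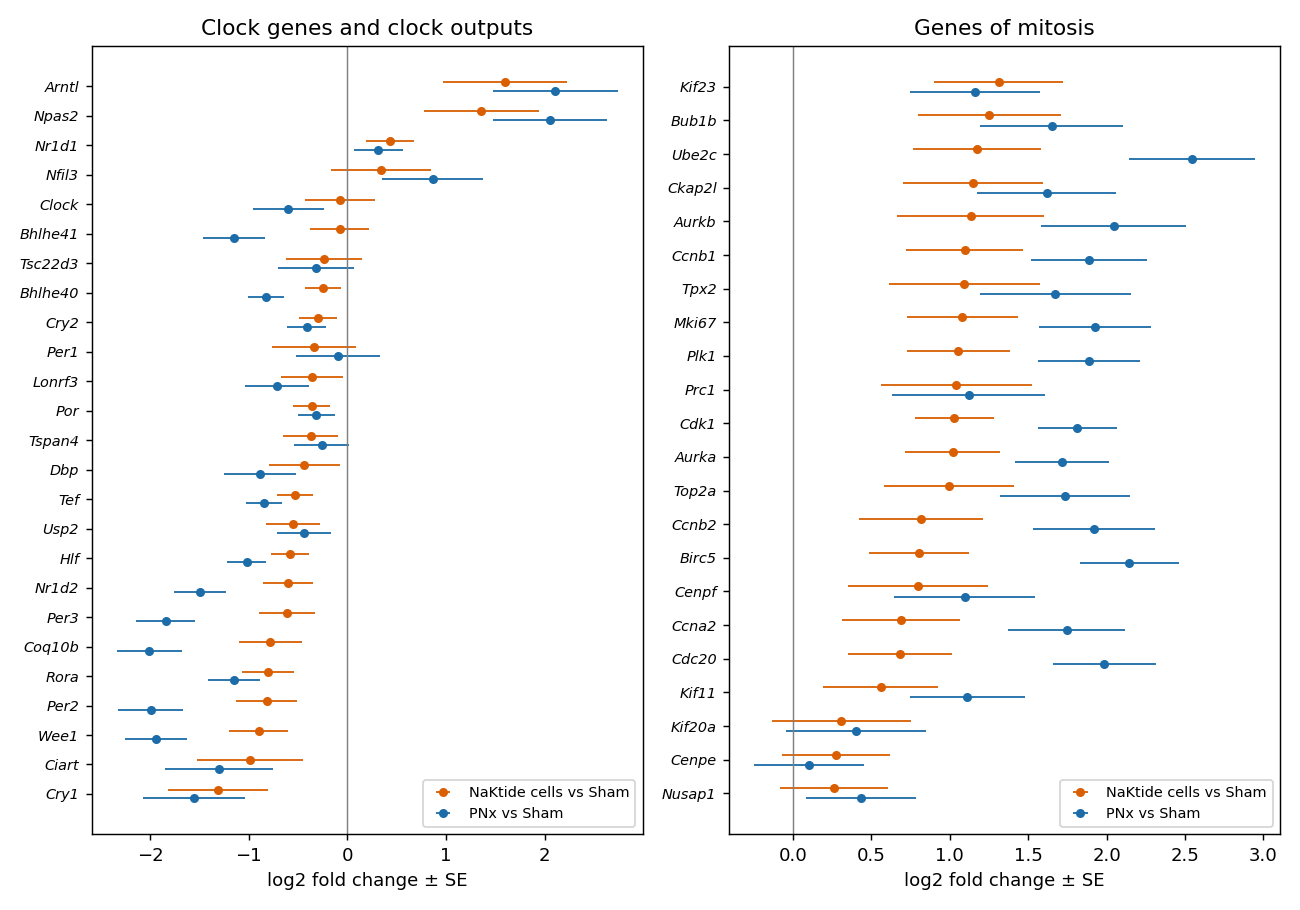
Log2 fold changes with standard errors against the same 5 Sham samples, for NaKtide cells after PNx and for PNx alone, of core clock and clock output genes that are reported here (left) and mitosis genes (right). In both panels most NaKtide points lie on the PNx side of 0 and nearer to 0, with Per2 at −0.82 and −1.99 and Cdk1 at 1.03 and 1.81. The direct comparison of NaKtide with PNx called 0 genes.

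Promoters of Cry1, Ciart and Per3 are shown because they hold the letters of sites through which clock proteins act, the E-box CACGTG of BMAL1 and its partners and the D-box, searched as TTATGNAA. All read 5′ to 3′ on the minus strand, the strand of the genes, from RefSeq on GRCm38.p6, with capitals for the site. They are chr10:85185089-85185208, chr3:95882252-95882371 and chr4:151044796-151044915.
Cry1: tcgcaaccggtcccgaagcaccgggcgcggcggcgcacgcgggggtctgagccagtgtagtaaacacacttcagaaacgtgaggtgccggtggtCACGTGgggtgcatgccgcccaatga
Ciart: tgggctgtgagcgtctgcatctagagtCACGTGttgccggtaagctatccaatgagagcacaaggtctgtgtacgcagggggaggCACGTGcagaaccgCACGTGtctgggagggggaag
Per3: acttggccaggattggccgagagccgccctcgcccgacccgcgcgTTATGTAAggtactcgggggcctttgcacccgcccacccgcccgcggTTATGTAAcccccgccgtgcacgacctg
CACGTG, a palindrome counted once, was present for 4 of the 13 core clock genes found in the table of 16 listed (30.8%) and 4 of 9 outputs of 10 listed (44.4%), against 8.09% of 27025 genes. TTATGNAA was present for 2 of 13 and 1 of 9, against 3.99%. Ciart, a repressor with 3 E-boxes in the stretch shown, measured 10.5 to 19.2 CPM in Sham and 14.4, 4.02, 5.25, 6.28 and 8.18 CPM in NaKtide 1 to 5. NaKtide 1 again lay in the Sham range and the other 4 below it (log2 fold change −0.99, adjusted p = 0.832).

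Glutathione S-transferase genes, whose products couple reactive compounds to glutathione, had a median of 0.23 over 21 tested. Of these 4 were higher and 0 lower at an unadjusted p under 0.05 (all genes: 4.04% and 2.18%), and 4 did not overlap, all higher (all genes: 1.51%), namely Gsta1, Gsta2, Gsta4 and Mgst1. PNx against Sham had a median of 0.72 with 12 called higher (all genes: 9.25%), and scrambled cells 0.42 with 4 (all genes: 1.72%). Gsta2 (ENSMUSG00000057933, chromosome 9, 78331018 to 78355788) measured 37.9, 23.5, 32.9, 20.7 and 29.8 CPM in Sham and 57.2, 47.7, 65.9, 74.7 and 47.9 CPM in NaKtide 1 to 5. NaKtide 1 lay in the middle of its group here. The log2 fold change was 1.01 (SE 0.31, edgeR adjusted p = 0.712), and the fit of only the 2 groups called 3 members of the list higher (all genes: 0.117%). PNx kidneys measured 114 to 184 CPM, above all NaKtide samples (NaKtide against PNx −1.19, unadjusted p = 0.000675, adjusted p = 0.258). Gsta1 and Gsta2 are close copies whose reads the counting may have divided unevenly, so their values are uncertain. The wider NRF2 list, the factor that induces these genes, had a median of 0.16 with 3 of 23 higher at an unadjusted p under 0.05 (all genes: 4.04%). Without NaKtide 1 its median was 0.26 and 7 were higher at that threshold (all genes: 5.77%). Its classic member Nqo1, a quinone reductase, measured 49.6 to 68.5 CPM in Sham and 57.0 to 97.1 CPM with NaKtide (log2 fold change 0.37, adjusted p = 0.816).

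Matrix genes were higher in all 26 tested (all genes: 56.1% above 0), 13 of them at an unadjusted p under 0.05 (all genes: 4.04%). Their median was 0.60, and 0.76 without NaKtide 1. The 13 became 5 without NaKtide 3 and 8 without Sham 1. Beside it, PNx against Sham had a median of 0.27 with 1 called higher (all genes: 9.25%). Scrambled cells had 0.61 with 4 called higher (all genes: 1.72%). NaKtide against PNx had a median of 0.50 with 0 called. In the reduced fit 8 members were called higher (all genes: 1.44%).

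Col3a1, fibrillar collagen III (ENSMUSG00000026043, chromosome 1, 45311538 to 45349706), measured 13.6, 20.4, 19.1, 17.0 and 20.1 CPM in Sham 1 to 5 and 23.2, 53.2, 119, 31.4 and 53.9 CPM in NaKtide 1 to 5. The groups did not overlap, NaKtide 3 was the highest and NaKtide 1 the lowest of its group. The log2 fold change was 1.64 (SE 0.39, unadjusted p = 0.000273, adjusted p = 0.445) and 1.83 without NaKtide 1 (adjusted p = 0.0895). Col1a1, the main chain of collagen I, measured 8.70 to 14.99 CPM in Sham and 13.1, 37.4, 89.0, 18.4 and 40.0 CPM with NaKtide (1.74, SE 0.46, adjusted p = 0.611). It showed the same highest and lowest NaKtide samples. Without NaKtide 3 the lowest leave-one-out values were 1.17 for Col3a1 and 1.21 for Col1a1. Basement membrane collagen genes were higher too, Col4a1 at 155 against 230 CPM and Col4a2 at 110 against 165 CPM on average, as was fibronectin, Fn1, at 24.4 ± 5.20 against 41.7 ± 19.8 CPM. All 3 were called in the reduced fit (adjusted p = 0.0188, 0.0211 and 0.0375).

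Among 20 genes of TGF-β signalling, which drives matrix production, 4 were higher at an unadjusted p under 0.05 (all genes: 4.04%) and the median was 0.26. The 4 became 2 without NaKtide 3, NaKtide 5, Sham 1, Sham 2 or Sham 4. PNx against Sham had a median of −0.11 and 3 called lower (all genes: 7.56%). Ccn1, a matricellular target, measured 8.24 to 14.1 CPM in Sham and 15.6 to 20.9 CPM with NaKtide, with no overlap (log2 fold change 0.71, SE 0.23, adjusted p = 0.712). Ltbp2, a protein of elastic microfibrils, measured 0.168 to 0.473 CPM in Sham and 0.539, 1.81, 11.6, 0.483 and 1.68 CPM in NaKtide 1 to 5, where NaKtide 3 carried most of the group mean.

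Macrophage markers were above Sham in 18 of 18 tested (all genes: 56.1%), 6 of them at an unadjusted p under 0.05 (all genes: 4.04%), with a median of 1.01. The 6 became 2 without NaKtide 3 and 3 without NaKtide 2. Beside it, PNx against Sham had a median of 1.96 with 10 called higher (all genes: 9.25%). Scrambled cells had 1.86 with 6 called higher (all genes: 1.72%). The summed level of these markers was 145 to 188 CPM in Sham and 174, 410, 430, 233 and 260 CPM in NaKtide 1 to 5. None of the 18 was at 0 in all samples of a group. The sums were 276, 218, 2017, 375 and 154 CPM in PNx 1 to 5, with PNx 3 far above the rest. They were 334, 1419, 507, 359 and 945 CPM in scrambled-cell samples 1 to 5. Median sums were 260 CPM with NaKtide, 276 CPM with PNx and 507 CPM with scrambled cells. Lyz2, macrophage lysozyme (ENSMUSG00000069516, chromosome 10, 117277331 to 117282321), measured 20.5, 25.8, 24.2, 31.0 and 30.8 CPM in Sham and 43.7, 158, 140, 66.9 and 74.8 CPM with NaKtide. There was no overlap, and NaKtide 2 and 3 were highest (log2 fold change 1.87, SE 0.69, adjusted p = 0.727). The complement genes C1qa (8.98 to 11.0 against 14.1 to 28.9 CPM) and C1qb (6.94 to 8.55 against 10.8 to 24.6 CPM) also did not overlap. In the reduced fit 5 markers were called higher (all genes: 1.44%).

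Markers of other cell types were high in single samples. All 8 adipocyte markers tested were above 0, with a median log2 fold change of 2.32 (1.68 without NaKtide 1) and 0 at an unadjusted p under 0.05. They summed to 384 and 385 CPM in NaKtide 1 and 3, against 20.1 to 67.0 CPM in the other NaKtide samples and 21.6 to 147 CPM in Sham, and Adipoq was at 25.8 and 21.9 CPM in those 2 samples. Their part in the matrix and macrophage values was not tested. Within NaKtide kidneys the matrix sum was lowest in NaKtide 1 (686 CPM) and highest in NaKtide 3 (1759 CPM), the 2 samples of highest adipocyte sum, and it was 591 to 878 CPM in Sham. Neutrophil markers summed to 2.43 to 5.05 CPM with NaKtide, with Elane and Mpo at 0 in all 5, and to 1.41 to 3.14 CPM in Sham, against 4202 CPM in PNx 3. Endothelial markers summed to 501 to 823 CPM with NaKtide and 416 to 676 CPM in Sham.

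Genes of tubule injury had a median of 0.59 over 23 tested, with 22 above 0 (all genes: 56.1%). At an unadjusted p under 0.05, 4 were higher (all genes: 4.04%). Beside it, the median was 1.12 for PNx, with 10 called higher (all genes: 9.25%). For scrambled cells it was 1.09, with 5 called higher (all genes: 1.72%). That count of 4 became 0 without NaKtide 3 or Sham 2, 1 without NaKtide 2, NaKtide 5, Sham 1 or Sham 4, 2 without NaKtide 4 or Sham 3, and 9 without NaKtide 1. Of the list 4 did not overlap, all higher (all genes: 1.51%). Clu, the secreted chaperone clusterin, measured 157, 158, 158, 152 and 177 CPM in Sham and 190, 227, 241, 250 and 278 CPM in NaKtide 1 to 5. Krt7, a simple epithelial keratin, measured 81.4 to 109 and 114 to 174 CPM. Both were called in the reduced fit (adjusted p = 0.0175 and 0.0188) among 6 of the list (all genes, higher: 1.44%). Lcn2, the injury marker NGAL, measured 2.84, 1.90, 2.91, 2.69 and 5.62 CPM in Sham and 2.56, 30.2, 27.2, 8.02 and 19.2 CPM with NaKtide. NaKtide 1 was at the Sham level and the other 4 above every Sham sample (log2 fold change 2.46, SE 1.25, adjusted p = 0.815). Havcr1, the proximal injury marker KIM-1, measured 18.8 to 28.9 CPM in Sham and 18.7 to 24.1 CPM with NaKtide (−0.18, adjusted p = 0.937).

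**Figure D4:**
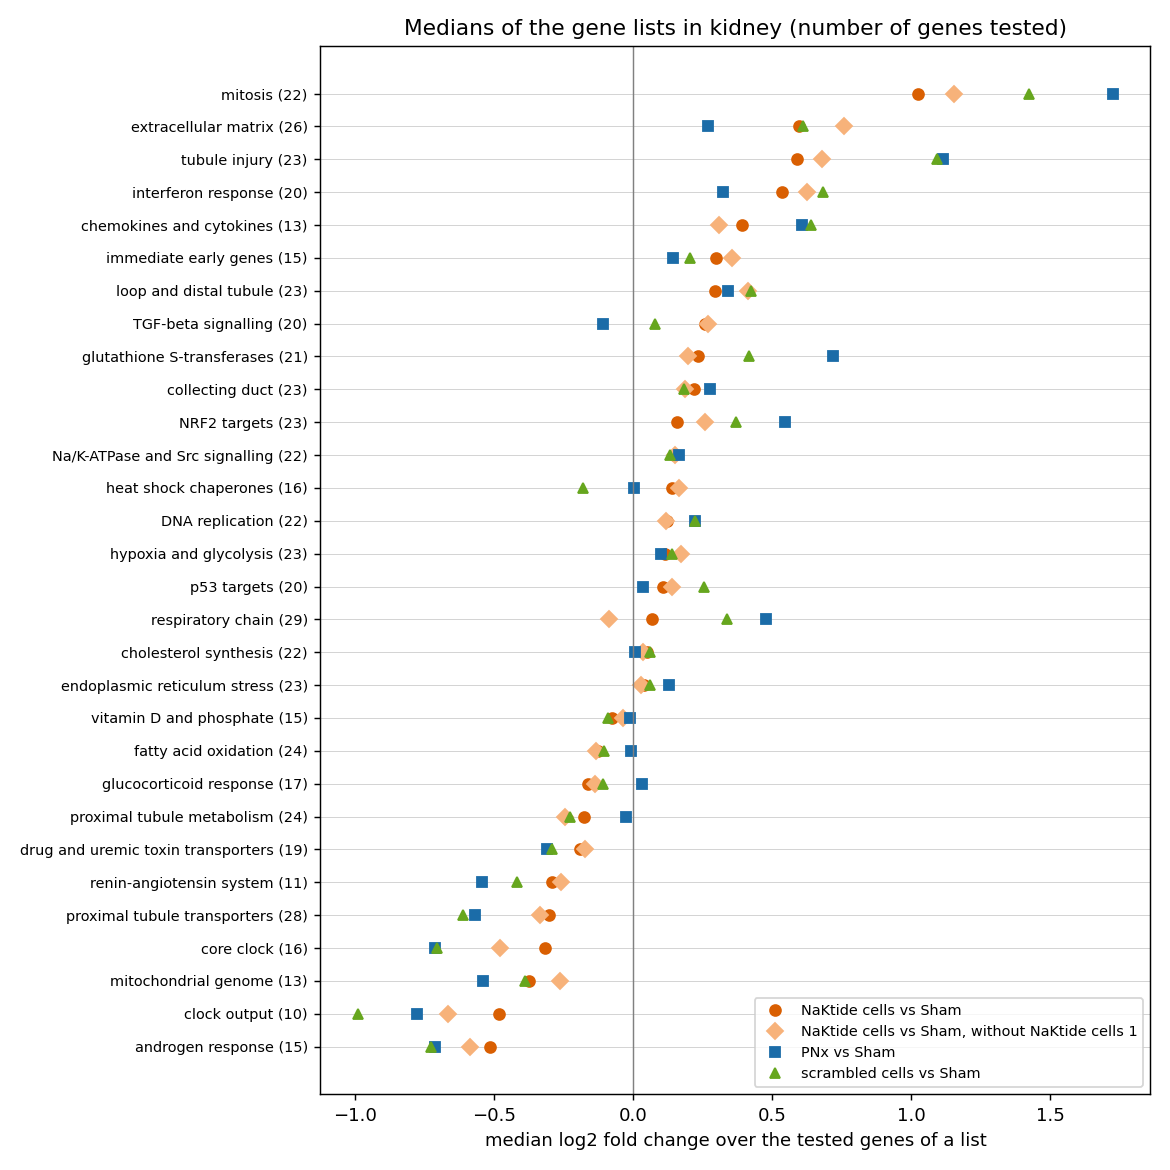
Median log2 fold change over the tested genes of each pathway list with at least 10 tested genes (number in brackets), against the same 5 Sham samples, for NaKtide cells with and without NaKtide 1, PNx alone and scrambled cells. Mitosis is highest for NaKtide (1.02, beside 1.72 for PNx), extracellular matrix (0.60, beside 0.27 for PNx) and tubule injury (0.59, beside 1.12) follow, and androgen response lowest (−0.51, beside −0.71). Without NaKtide 1, clock output is lowest (−0.67, against −0.59 for androgen response).

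Farther along the nephron, genes of the loop and distal tubule had a median of 0.29 over 23 tested, with 18 above 0 (all genes: 56.1%), and 5 higher and 0 lower at an unadjusted p under 0.05 (all genes: 4.04% and 2.18%). The 5 became 3 without NaKtide 2. Collecting duct genes had a median of 0.22 over 23 tested, with 21 above 0 and 3 higher at an unadjusted p under 0.05 (all genes: 4.04%), which became 6 without NaKtide 1 and 1 without NaKtide 2 or Sham 4. Interferon response genes, which cells switch on against viruses and leaked nucleic acid, had a median of 0.54 over 20 tested, with 19 above 0 and 4 higher at an unadjusted p under 0.05 (all genes: 4.04%). The 4 became 1 without Sham 3 or Sham 4, 2 without NaKtide 2, NaKtide 3, Sham 1 or Sham 2, and 8 without Sham 5. Genes encoded by the mitochondrial genome were below 0 in 13 of 13 tested (all genes: 43.9%), with 0 at an unadjusted p under 0.05. Their median was −0.38, and −0.26 without NaKtide 1. The mitochondrial share of counts had a median of 8.01% with NaKtide and 7.99% in Sham, and was 4.94% in NaKtide 1. Nuclear respiratory chain genes had a median of 0.07 over 29 tested, and −0.09 without NaKtide 1.

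Genes of vitamin D handling were split, with 3 of 15 higher at an unadjusted p under 0.05 (all genes: 4.04%). Leaving out Sham 5 made this 1. The carrier of vitamin D in blood, Gc (ENSMUSG00000035540, chromosome 5, 89417522 to 89457898), measured 4.26, 7.50, 6.65, 6.06 and 6.09 CPM in Sham and 12.8, 29.1, 35.5, 24.5 and 17.9 CPM in NaKtide 1 to 5. It did not overlap, and NaKtide 1 was the lowest of its group (log2 fold change 1.97, SE 0.52, unadjusted p = 0.000871, adjusted p = 0.611). The fit of only the 2 groups and the reduced fit called it higher (reduced fit 2.14, adjusted p = 0.0188). PNx kidneys measured 21.3 to 171 CPM and were called against Sham (3.29, adjusted p = 0.00249). Cyp24a1, the hydroxylase that inactivates vitamin D, ranged over 24.8 to 76.3 CPM in Sham and 27.7 to 89.4 CPM with NaKtide. Kl, the FGF23 co-receptor Klotho, measured 596 ± 76.5 and 470 ± 55.0 CPM (−0.34, adjusted p = 0.937).

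Of the genes of the pump and of Src signalling, edgeR called 0 of 22 tested, with 0 at an unadjusted p under 0.05 (all genes: 6.22%) and a median of 0.15. Without NaKtide 1 the median was 0.15 and 1 was higher at that threshold (all genes: 5.77%). For this list limma voom called 4 higher and 0 lower (all genes: 12.4% and 7.32%). Src (ENSMUSG00000027646, chromosome 2, 157418444 to 157471862) measured 34.3 ± 1.73 CPM in Sham and 36.1 ± 3.33 CPM in NaKtide kidneys (SD, n = 5 and 5). The groups overlapped, with a difference of 0.07 on the log2 scale (SE 0.12, edgeR adjusted p = 0.937). NaKtide 1 was the lowest of its group at 30.3 CPM, and the other 4 measured 36.3 to 38.5 CPM. RNA levels give no measure of the peptide or of kinase activity.

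A few genes passed in most of the other fits of NaKtide against Sham. They were chosen after their values were seen. Of the 5 fits compared (DESeq2, limma voom, only the 2 groups, the length index as a covariate, and without the 5 libraries of high index), all 5 called 3 genes, and at least 4 called 7. Tnfrsf21, death receptor 6 (ENSMUSG00000023915, chromosome 17, 43016555 to 43089189), measured 285, 293, 310, 407 and 298 CPM in Sham and 175, 143, 124, 162 and 233 CPM with NaKtide. Its highest NaKtide sample was below its lowest Sham sample (log2 fold change −0.93, SE 0.17, edgeR unadjusted p = 1.59e-05, adjusted p = 0.226), and leaving out NaKtide 5 gave an adjusted p of 0.0360.

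Etv6, an ETS repressor of transcription (ENSMUSG00000030199, chromosome 6, 134035700 to 134270158), measured 72.2, 72.2, 69.3, 75.5 and 69.0 CPM in Sham and 38.6, 50.4, 52.7, 50.4 and 53.9 CPM in NaKtide 1 to 5. Sham samples lay close together and all NaKtide samples below them (−0.54, SE 0.14, adjusted p = 0.611). The scaffold gene Tanc2 was the third, at 70.4 ± 7.51 against 40.1 ± 8.47 CPM (−0.81, adjusted p = 0.430). The 7 genes also hold Rora, which was lower, and Mmp15, a membrane metalloproteinase, and Nectin4, an adhesion protein, both higher. Mmp15 (ENSMUSG00000031790, chromosome 8, 95352268 to 95375080) measured 2.27, 2.13, 3.26, 2.19 and 3.16 CPM in Sham and 3.51, 10.9, 7.63, 5.89 and 7.38 CPM with NaKtide. Every NaKtide sample was higher than every Sham sample (1.44, SE 0.28, unadjusted p = 2.78e-05, adjusted p = 0.226), with an adjusted p of 0.0249 without NaKtide 1. In PNx against Sham, Mmp15 and Tnfrsf21 were called at 1.45 and −1.27 (adjusted p = 0.00698 and 0.00101). Their NaKtide against PNx values were −0.01 (adjusted p = 0.988) and 0.34 (adjusted p = 0.265).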

How the data were processed

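RNA came from an RNeasy Plus Universal extraction and was sequenced as paired reads of 50 bases, per the labels' protocols. The submitters' processing notes name GRCm38, HISAT2 2.1.0, Trimmomatic 0.38 and DESeq2 (1.20.0, 1.20.1), while counting settings and strandedness are not stated. The deposited table holds raw read counts per gene from the authors (54232 genes, 76 libraries), which all results use. The deposited signal table holds those counts divided by 1 size factor per library. The deposited FPKM table holds values the authors scaled from it by gene length and library total. The ratio of these 2 tables gave the relative gene lengths that set the quartiles of the RNA length index. No expression level was taken from either. Gene positions come from GENCODE M21.

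The 25 kidney samples were fitted together over 5 arms with edgeR 4.0.16 (R 4.3.3, quasi-likelihood F test, TMM, edgeR's expression filter), tested on simulated data, with two-sided p-values adjusted by Benjamini-Hochberg over all genes. Levels are CPM on TMM-adjusted totals. Alternatives were DESeq2 1.42.0, limma 3.58.1 voom with quality weights, and those in the closing section. Members, lists and comparisons were chosen with earlier results of these data known. The rule for named genes gave a fixed set of 19, since it otherwise named only genes that passed. Some genes are counted in their lists but not reported singly here. Other named genes are list members or were chosen after their values were seen.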

Additional observations from a re-analysis of the deposited data

Results flagged for a closer look

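In groups of 5 samples, a sample far from the other 4 was looked for among the named genes, and chance marks about 1 in 20 groups. With many genes looked at in each group, several such marks can come by chance alone. NaKtide 1 was marked for Src (30.3 CPM, the others 36.3 to 38.5) and Etv6 (38.6 CPM, the others 50.4 to 53.9). In Sham, sample 5 was high for Cdkn1a (12.1 CPM, the others 5.01 to 7.06) and Lcn2 (5.62 CPM, the others 1.90 to 2.91), sample 4 for Tnfrsf21 (407 CPM, the others 285 to 310) and sample 3 for the adipocyte gene Adipoq (4.43 CPM, the others 0.234 to 1.01).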

How the results depend on the processing

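The number of genes called in NaKtide against Sham was 0, and stayed 0 with DESeq2's size factors, without an expression filter, with the replicate block, and with the second Sham library left out or kept separate. It was 6 with DESeq2, 17 with the length index as covariate, 55 with only the 2 groups, 57 without the 5 libraries of high index, 371 without these and NaKtide 1, and 3217 with limma voom. Leaving out single samples gave 0 to 2. NaKtide against PNx gave 0 in all edgeR and DESeq2 fits run and 6773 with limma voom. NaKtide against scrambled cells gave 14 with DESeq2, 4401 with limma voom, 2 without the 5 libraries and 2160 without these and NaKtide 1. PNx against Sham (2742) gave 4466 with DESeq2, 7232 with limma voom, 568 with the length index, 1007 unfiltered, 146 with only the 2 groups, 4283 with the second library separate, 97 and 184 without the doubted libraries (the second also without NaKtide 1), and 307 to 6534 leaving out single samples. Scrambled against Sham (588) gave 1288, 6898, 1356, 322 and 4564 in the first 5 of these, 4532 and 5584 without the doubted libraries, and 174 to 823 leaving out single samples. The causes were not tested. Same-numbered NaKtide and Sham samples correlated at −0.164 to 0.157, over 0.1 in 2 of 5, so the numbers were not taken as pairs. With DESeq2's size factors PNx against Sham called 1260 genes higher and 1429 lower (46.9% higher, against 55.0%), and with the replicate block 1136 and 1667 (40.5% higher). Of 50 named genes 0 changed sign in NaKtide against Sham under the alternatives in which they were tested, and 1 of them was not tested with only the 2 groups. Of the 50, 31 were picked because at least 3 of the 5 other fits called them. Their stable sign was therefore largely fixed by that choice and is no measure of robustness. Genes near 1 CPM rest on few counts.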
